A study of Drosophila melanogaster with 3 samples.

Results

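Binding sites of CG18764 were examined at single-direction promoters, the promoters that start a protein-coding gene with no protein-coding gene starting the other way just upstream. A peak was counted when its summit lay within 500 bp of a protein-coding transcription start site (TSS) and the nearest such TSS had no opposite-strand protein-coding TSS in the 1000 bp upstream of it. Of the 3754 peaks in the authors' optimal list on dm6, 1032 met this rule (27.5%, Wilson 95% interval 26.1 to 28.9%). They made up 54.6% of the 1891 peaks near any protein-coding TSS, and 859 others lay at divergent promoters. The summit was upstream of the TSS in 897 and downstream in 135, and the sides are described separately throughout.

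The data come from chromatin immunoprecipitation and sequencing (ChIP-seq) of intact Drosophila melanogaster embryos, males and females pooled, collected 0 to 16 h after laying. The line stably carried a transgene for CG18764 with GFP at its C terminus, and the antibody was directed against GFP. All 3 samples are biological replicates of this group, per the labels, and no control samples were analysed here. A whole-embryo sample joins all tissues and stages of that window, so a peak can stem from few cells or many. Relaxed lists of 30000 peaks exist for every replicate, and all lists were called against 1 shared control dataset per the deposited file listing. Read depth behind the peaks is unknown. The signal value of a peak is the authors' own score with no stated scale, and it was used only to rank peaks within a list.

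A promoter holds the short sequences at which general transcription factors place RNA polymerase II. In Drosophila, many broadly expressed genes carry elements such as the DNA replication-related element (DRE, TATCGATA), which DREF binds, and Motif 1, which M1BP binds. The insulator protein BEAF-32 recognises CGATA, the core of the DRE. Genes with restricted expression more often use a TATA box, an Initiator and GAGA sites, the last bound by GAGA factor. Many fly genes have several alternative TSSs, and neighbouring genes often share a divergent promoter, which a compact genome makes common. CG18764 is a member of the ZAD family of zinc-finger proteins, a large group of DNA-binding proteins in insects.

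The sequences of strong upstream peaks outside the right arm of chromosome 2 are given to show what lies under a summit. They are read from RefSeq's release 6 assembly (dm6), in the direction of transcription, 5′ to 3′. Capitals mark CGATA or its reverse complement TATCG, and in scrt the Ohler 7 core CANCNCTA. The stretch at CG14100 (chr3L:19590572-19590671, minus strand) has the summit at base 51, inside the TATCG. At scrt (chr3L:3983537-3983636, plus strand), a zinc-finger transcription factor gene of the nervous system, and Ubr1 (chrX:16968682-16968781, minus strand), an E3 ligase gene of the N-degron pathway, the summit is base 51.
CG14100: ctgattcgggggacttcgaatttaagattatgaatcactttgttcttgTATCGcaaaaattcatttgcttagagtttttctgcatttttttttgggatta
scrt: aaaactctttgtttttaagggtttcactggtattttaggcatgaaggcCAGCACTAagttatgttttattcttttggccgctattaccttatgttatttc
Ubr1: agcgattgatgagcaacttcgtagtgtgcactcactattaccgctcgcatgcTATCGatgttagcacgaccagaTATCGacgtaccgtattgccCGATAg

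Not every strong summit had such an element. The next sequence is the 100 bases around an upstream summit of ph-p (chrX:2137287-2137386, minus strand), a Polycomb group gene of the PRC1 complex, and it has none of the DRE core, Motif 1 core GGTCACACT, Ohler 7 core, TATAAA or ATTTAAAA on either strand. Its GC content is 33%. The 30 bases at the Smg5 summit (chr2L:13904521-13904550, minus strand), a gene of nonsense-mediated mRNA decay, have none of them either. That stretch is shorter than the 100 bases of ph-p, so an element just outside it would be missed.
ph-p: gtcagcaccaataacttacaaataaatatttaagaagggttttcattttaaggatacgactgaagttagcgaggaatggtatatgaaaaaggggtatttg
Smg5: acccgccaaagaaaaaaatcgaacattgca

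The full elements are shown from the highest-ranked upstream peaks, outside the same arm, that hold them within 50 bp of the summit. Capitals mark the element. A DRE is found at eEF1gamma (chr3R:29220120-29220149, plus strand), a translation elongation factor gene, and at Jwa (chr2L:18705879-18705908, minus strand). Motif 1 is found at jar (chr3R:24271365-24271394, minus strand), which encodes myosin VI, and as its reverse complement at scrib (chr3R:26536228-26536257, plus strand), a cell polarity gene. The reverse complement of the Ohler 7 core is found at CG14969 (chr3L:3335027-3335056, minus strand).
eEF1gamma: ggcctaggaaaTATCGATAtatcgccgtaa
Jwa: cTATCGATAgctcatggtgatgggctattg
jar: aactaatctctGGTCACACTgcagggcaga
scrib: cagttgctagtAGTGTGACCagacggcgat
CG14969: caacctctTAGCGTTGccagatgttccacg

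For downstream summits, 30 bases centred on the summit are given, with the summit at base 16. They come from CG11601 (chr2L:283241-283270, minus strand), a second site of ph-p (chrX:2137928-2137957, minus strand), eas (chrX:16278931-16278960, plus strand), which encodes ethanolamine kinase, CG4497 (chr2L:7194560-7194589, minus strand), CG5515 (chr3R:24188845-24188874, minus strand) and CG9399 (chr3R:9574144-9574173, minus strand). Capitals mark TTTATA, the reverse complement of TATAAA, in CG9399, and the other 5 hold none of the elements named above.
CG11601: cttaaaaacgcctccttgctggaatgaaac
ph-p downstream: aaatcaactcaatacgtatgtctattatat
eas: ttttgaggcttaaaagaggtctataatgtg
CG4497: aaaatcaagtgatctctatcattggcatta
CG5515: tgcgaatcatatgttggctgcatgtttaag
CG9399: ggtgctaaaattattTTTATAattgtgtaa

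Upstream summits were spread over the whole reach of the rule. Their median offset from the TSS was −174 bp, with quartiles at −281 and −97 bp and a range of −498 to −2 bp. Of the 897, 238 (26.5%) lay within 100 bp of the TSS, 372 (41.5%) beyond that up to 250 bp and 287 (32.0%) farther out. The rule applied to the 3754 highest peaks of each replicate gave median upstream offsets of −180, −176 and −168 bp (−175 ± 6.11 bp, SD, n = 3). It found 998, 1028 and 1081 peaks in the 3 replicates, of which 87.6%, 85.5% and 83.3% were upstream (85.4 ± 2.16%, SD, n = 3).

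Downstream summits were grouped by distance from the TSS. The median offset of the 135 was 138 bp (quartiles 54 and 366.5 bp, range 2 to 491 bp). Within 100 bp of the TSS lay 62 (45.9%), another 27 (20.0%) lay up to 250 bp and 46 (34.1%) beyond. The plot of summit positions shows 2 summits between 250 and 300 bp, against 7 in the 50 bp before and 9 in the 50 bp after. These counts are small, and a gap there was not tested. Replicate lists gave downstream medians of 142, 132.5 and 108 bp.

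**Figure D1:**
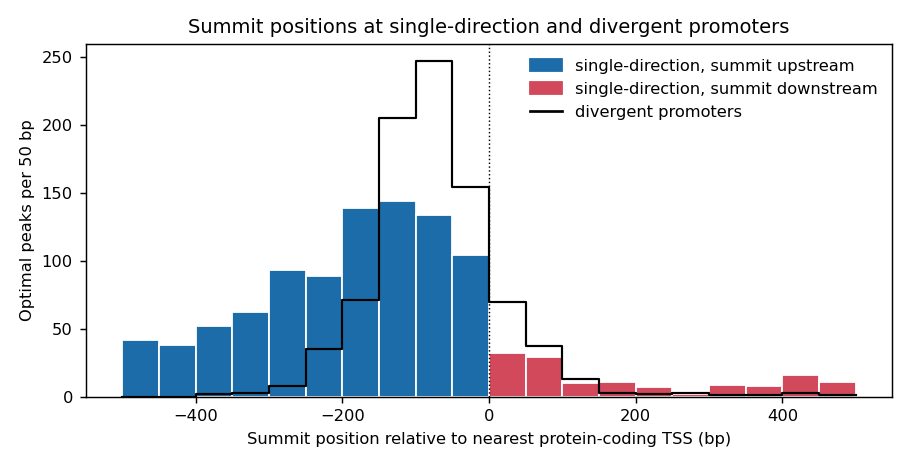
Number of optimal peaks per 50 bp against the position of the summit relative to the nearest protein-coding TSS, in bp. Blue and red bars are single-direction promoters with the summit upstream (897) and downstream (135), and the black line is divergent promoters. The blue bars extend far beyond −250 bp, where 287 upstream summits lie against 13 at divergent promoters, whose distance the rule limits.

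At divergent promoters the summits lay closer to a TSS. The 725 upstream summits there had a median offset of −95 bp and 13 (1.79%) lay beyond 250 bp. A summit between a pair of facing TSSs is assigned to the nearer, which limits its distance by construction. The replicates gave −95, −94.5 and −88 bp (−92.5 ± 3.91 bp, SD, n = 3), and the difference from single-direction promoters was −85, −81.5 and −80 bp. All 3 replicates showed this direction (exact two-sided sign-flip permutation test, p = 0.25, the smallest that 3 replicates allow). The rule itself shortens the divergent offsets, so no conclusion is drawn from this direction or its test. The share upstream was higher at single-direction than at divergent promoters by 2.79, 2.84 and 2.96 percentage points (2.86 ± 0.0871, SD, n = 3; exact sign-flip permutation p = 0.25).

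By annotation, 509 of the upstream summits (56.7%) were intergenic and 238 (26.5%) lay in an intron of the same gene, upstream of an internal TSS. A further 51 lay in an intron of another gene, 42 in a 5′ UTR of the same gene, 28 in a 3′ UTR of another gene, 2 in a 5′ UTR of another gene and 27 in other exons. Of the downstream summits, 92 (68.1%) lay in a 5′ UTR of the gene and 41 (30.4%) in one of its introns. Of the 62 downstream summits within 100 bp, 60 lay in the 5′ UTR, and of the 46 beyond 250 bp, 30 lay in introns.

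Many downstream summits had another TSS of the same gene ahead of them. This held for 78 of 135 (57.8%), which were 43 of the 62 summits within 100 bp, 16 of the next 27 and 19 of the 46 far ones. The median distance from the summit to that next TSS was 229, 397 and 1038 bp in the 3 classes. Genes with more than 1 annotated TSS made up 80.7% of downstream and 54.5% of upstream peaks, against 41.1% of the 7962 single-direction TSSs that had no summit of the pooled relaxed list within 500 bp. These are shares of annotated positions, given without a test.

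Gaps to the neighbouring gene were described without a test. Where the next gene upstream was on the same strand, the median gap was 692 bp for upstream and 470 bp for downstream peaks, against 979 bp at promoters without a peak. Gaps of at most 1000 bp to such a neighbour occurred at 34.3%, 31.9% and 26.2%. The TSS lay inside another gene at 11.8%, 11.9% and 19.7%. An opposite-strand TSS of any gene type, such as a noncoding RNA, lay within 1000 bp upstream at 65 of the 1032 (6.30%).

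Peaks were found on all arms but Y. X held 191, 2L 193, 2R 210, 3L 199, 3R 227 and chromosome 4 12. As a share of each arm's single-direction TSSs with a peak this was 8.24% on X, 7.36% on 2L, 7.19% on 2R, 7.68% on 3L, 7.23% on 3R and 9.65% on chromosome 4. None of the 23 single-direction TSSs on Y had a peak.

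The highest upstream peaks kept their places in the replicates. First in the whole optimal list came gus, a SOCS-box gene whose product binds Vasa, with its summit at position 5128371 of 2R and rank 1 in each replicate. Summit offsets there were −51, −48 and −49 bp. The second, at another TSS of gus (2R position 5122312), ranked 2, 5 and 2. CG14100 (3L position 19590621) ranked 4, 3 and 5, with summits at −95, −88 and −97 bp. These peaks stayed among the 5 highest of every replicate.

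A nuclear protein gene of wing vein patterning, px (2R position 22514296), ranked 12, 8 and 12, with its summit at −197 bp. Smg5 (2L position 13904535) ranked 16, 26 and 9, and its summit moved from −104 bp in replicate 1 to −59 bp in the others. The ranks of px and Smg5 overlapped. scrt (3L position 3983587) ranked 31, 14 and 7 with a summit at −309 bp, and CG1888 (2R position 9547183) ranked 24, 16 and 19 with a summit at −225 bp.

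Downstream peaks began lower in the list. The highest was at GstE13 (2R position 9122187), a glutathione S-transferase gene, at +62 bp and with ranks 46, 44 and 60. Then came CG11601 (2L position 283255; 108, 73 and 38) and ph-p (X position 2137942, at +429 bp; 98, 100 and 122). eas (X position 16278946, at +367 bp) ranked 145, 134 and 134.

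The other 4 named downstream peaks ranked lower. CG4497 (2L position 7194574) ranked 102, 196 and 142, and CG5515 (3R position 24188859) 142, 168 and 263. Ufsp1 (2R position 6975114), a UFM1 protease gene, ranked 210, 246 and 218. bgcn (2R position 23858783), a gene of germline differentiation, ranked 229, 278 and 251 with its summit at +138 bp. For 2 of these 8 the side was not stable: the CG11601 summit was at +20, +14 and −5 bp and the CG4497 summit at +40, −7 and +14 bp.

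**Figure D2:**
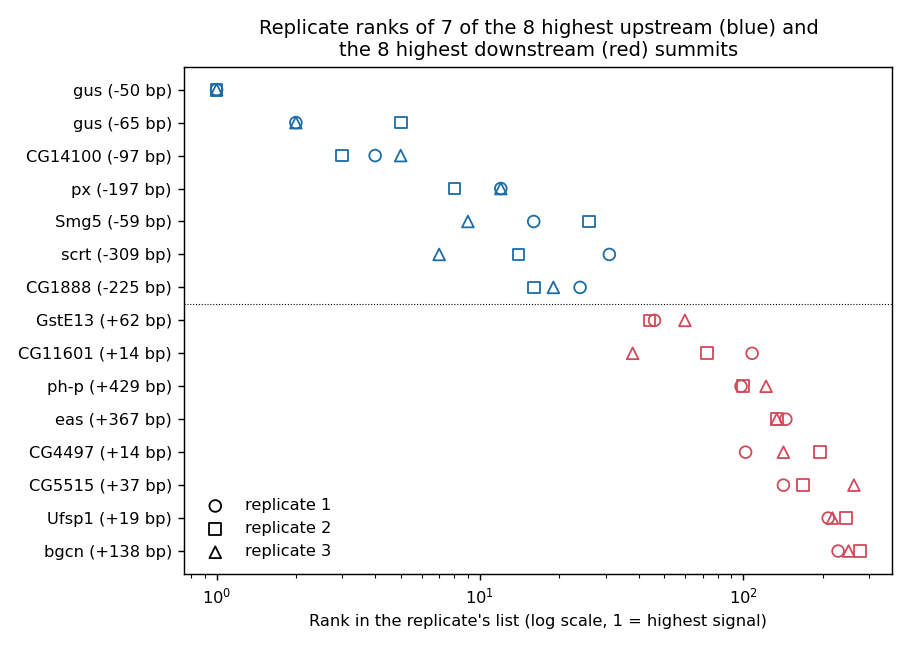
Rank in each replicate's list (log scale, 1 is the highest signal) of 7 of the 8 highest upstream (blue) and the 8 highest downstream (red) peaks, with the summit offset in brackets; circles, squares and triangles are replicates 1, 2 and 3. Upstream peaks span ranks 1 to 31 and downstream peaks ranks 38 to 278; both sets were chosen by rank in the optimal list, which draws on the same replicates, and the upstream set comes from more peaks.

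The side of the summit was stable over the replicates except near the TSS. Of 777 upstream peaks present in all 3 relaxed lists, 748 (96.3%) had the summit upstream in all of them. Of 105 downstream peaks, 92 (87.6%) were downstream in all. Within 100 bp of the TSS the counts were 169 of 198 (85.4%) and 32 of 45 (71.1%). The median range of the summit over the replicates was 43 bp upstream and 48 bp downstream, so the side of a summit nearer to the TSS than this is uncertain.

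The 1032 peaks fell on 939 genes, which is 9.82% of the 9558 genes with a single-direction TSS. More than 1 peak was found at 82 genes and more than 2 at 7, and 23 genes had peaks on both sides of their TSSs. Ptpmeg2, a tyrosine phosphatase gene on X, had 5, at ranks 214, 412, 443, 1462 and 2625, of which the summit at position 9659009 was downstream (+136 bp). Moe, which encodes the actin linker moesin, and Rtnl1, a reticulon gene of the endoplasmic reticulum, had 4 each, all upstream. The Rtnl1 summits lay at −281, −218, −281 and −314 bp from their nearest TSSs, and those of Moe between −454 and −6 bp. The genes with 3 were gus, RapGAP1, dnc (dunce), a cAMP phosphodiesterase gene, and larp, a La-related RNA-binding protein gene. Peaks of a gene can share a TSS, as at gus, where summits at −65 and −268 bp have the same one. Such neighbouring summits count as separate peaks here and in the tests over peaks, and whether they are separate sites was not tested.

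Single-direction promoters held more of the high ranks than of the low. They made up 34.2% of ranks 1 to 500, 29.7% of ranks 501 to 1500, 23.7% of ranks 1501 to 2500 and 26.1% of the rest. Among them, the upstream share was 93.0%, 88.2%, 87.3% and 82.3% in the same bands. Of upstream peaks, 541 (60.3%) were within 100 bp of a summit among the 3754 highest peaks of all 3 replicates, and of downstream peaks 68 (50.4%). Of the 2722 optimal peaks outside this part, divergent ones included, the share was 56.0%.

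The lower recovery of downstream peaks rested on replicate 1. Among its 3754 highest peaks were 61.5% of downstream peaks, against 83.0% and 82.2% in replicates 2 and 3. For upstream peaks the shares were 77.9%, 82.7% and 82.5% (81.0 ± 2.71%, SD, n = 3). The 2722 optimal peaks outside this part had 74.7%, 84.4% and 79.7%, also lowest in replicate 1. Upstream minus downstream recovery was thus 16.4, −0.243 and 0.275 percentage points (exact sign-flip permutation p = 0.5).

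Ranks, with a missing peak placed last, gave the same direction in all 3 replicates. Median ranks were 1679, 1701 and 1703 upstream (1694 ± 13.3, SD, n = 3) and 2896, 2070 and 2056 downstream (2341 ± 481). The differences were −1217, −369 and −353, with a mean of −646 ± 494 (exact two-sided sign-flip permutation p = 0.25, the smallest possible). Without replicate 1, over the peaks found in both other replicates, the mean difference was −363. Divergent upstream peaks had median ranks of 1612, 1795 and 1889 (1765 ± 141), and the difference from single-direction upstream peaks changed sign between replicates (67, −94 and −186). The 2722 optimal peaks outside this part had 2055.5, 1989.5 and 2015.5, near the downstream values of replicates 2 and 3.

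**Figure D3:**
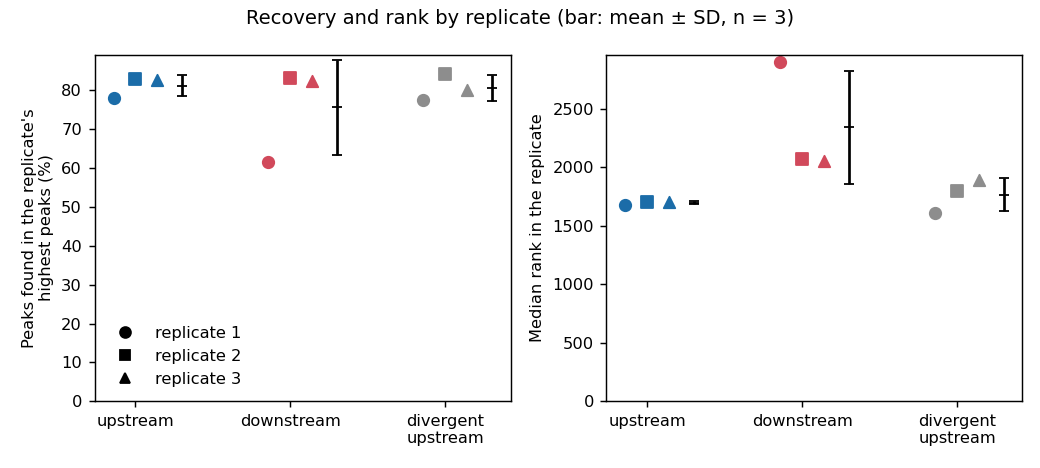
Share of peaks found among the 3754 highest peaks of each replicate (left, %) and median rank in each replicate's relaxed list (right) for upstream, downstream and divergent upstream peaks; symbols are replicates and bars the mean ± SD (n = 3). The downstream value of replicate 1, 61.5% and rank 2896, stands apart from replicates 2 and 3.

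DNA at upstream summits was poorer in GC than its surroundings. The 100 bp at the summit had a mean GC content of 34.5 ± 9.46% (SD over 897 peaks), against 38.6 ± 10.5% in a window centred 300 bp farther from the gene. GC was lower at the summit for 533 peaks, higher for 338 and equal for 26 (two-sided exact sign test over peaks, p = 4.1e-11). In the replicate lists the difference was −4.32, −4.54 and −3.01 percentage points (−3.96 ± 0.827, SD, n = 3). For peaks within 250 bp of the TSS it was −1.55 points. Tests over peaks treat sites of 1 merged list as units and do not measure variation between embryo collections.

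Promoters without a peak had a shallower fall over the same positions. Their GC content was 40.4% at −475 bp and 39.7% at −175 bp from the TSS. The promoters with upstream peaks had 38.1% and 33.6% at these positions, then rose to 47.8% at −25 bp, above the 42.9% of promoters without a peak. Divergent promoters had a lower and nearer minimum of 27.8% at −150 bp.

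GC content was also measured at downstream summits. Its mean was 37.8 ± 8.94% (135 peaks), against 45.6% at +138 bp in promoters without a peak. Those promoters had 43.9% at +25 bp in 50 bp windows. Downstream summits ranged from 2 to 491 bp, so neither window is matched to each summit's position. The summit-centred profile fell to 36.4% at 25 bp beyond the summit and was 41.2% at 50 bp before it. By distance from the TSS, the 3 downstream classes had 39.0%, 38.7% and 35.7%.

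**Figure D4:**
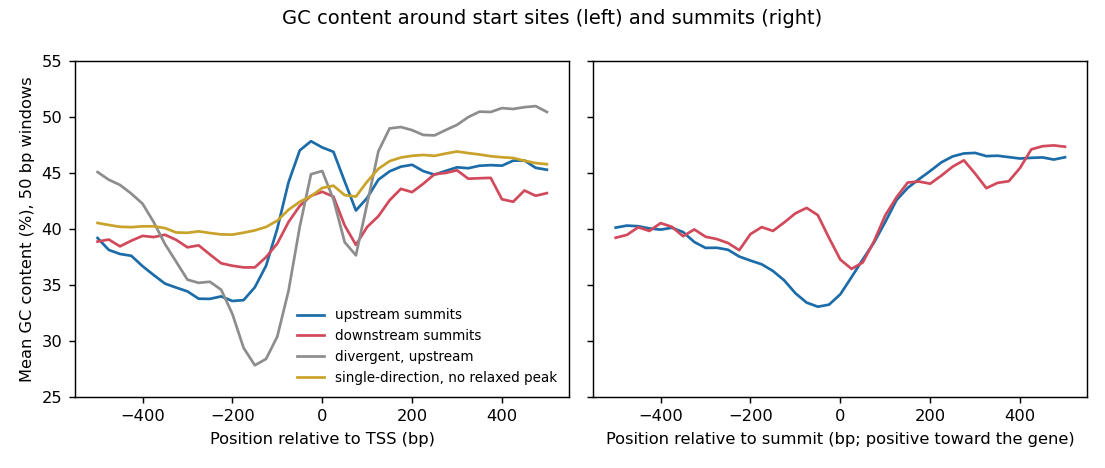
Mean GC content (%) in 50 bp windows by position relative to the TSS (left) and to the summit (right; positive toward the gene), in bp. Blue is upstream peaks, red downstream, grey divergent upstream and yellow the 7962 single-direction TSSs without a relaxed peak; blue falls to 33.6% at −200 bp on the left and to 33.1% at −50 bp on the right.

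Several of the sequences searched were more frequent at upstream summits than in their flanks. The flank always lies farther from the TSS, and the part of that distance was not tested. Even at promoters without a peak, the DRE had 163 matches in the 100 bp before the TSS and 39 in the 100 bp before those. Of 14 consensus sequences searched on both strands, 6 (42.9%) were higher and 1 (7.14%) lower in the 100 bp at the summit (two-sided exact McNemar tests over peaks, Benjamini-Hochberg adjusted p below 0.05). The DRE core CGATA was found in 199 of 897 summit windows (22.2%) and 106 flank windows (11.8%), with an adjusted p of 1.4e-07. The full DRE TATCGATA, which contains the core on both strands, was found in 27 against 4 (exact McNemar adjusted p = 0.000158). In the upper 50% of peaks by signal the full DRE lost its call, with a difference of 1.84 percentage points against 2.56 (exact McNemar adjusted p = 0.0981). At promoters without a peak, a window at the fixed offset of −174 bp held the core in 12.7% and the full DRE in 0.440%. Upstream summits themselves ranged from −498 to −2 bp, so this window is not matched to each summit's position. The same fixed window gave the shares set beside summit windows for the other consensuses and 6-mers. The replicates had the core in 20.8%, 21.3% and 21.3% of summit windows and in 12.6%, 11.7% and 12.9% of flanks.

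Motif 1 and Ohler 7 followed the same direction. The Motif 1 core GGTCACACT was in 14 summit windows and 1 flank (exact McNemar adjusted p = 0.00195), and in 0.0754% of promoters without a peak. Its call was lost in the upper 50% of peaks, at 1.23 percentage points against 1.45 (exact McNemar adjusted p = 0.0729). The Ohler 7 core CANCNCTA, a motif of core promoters, was in 59 and 23 (exact McNemar adjusted p = 0.000195), against 2.17% of promoters without a peak. At least 1 of the DRE core, Motif 1 core and Ohler 7 core was present at 234 upstream summits (26.1%, Wilson 95% interval 23.3 to 29.1%), in 14.2% of flanks and in 14.7% of promoters without a peak. Divergent upstream summits had 33.2% (29.9 to 36.8%) and downstream summits 23.0% (16.7 to 30.7%), so this share is not particular to upstream summits here. 

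TATAAA and ATTTAAAA, made of A and T alone, were also higher at the summit, where GC content was lower. The tract of 8 A was not, in 59 summit windows and 53 flanks (exact McNemar adjusted p = 0.679). TATAAA was in 199 summit windows and 136 flanks (exact McNemar adjusted p = 0.000706), and in 14.6% of promoters without a peak. The call for TATAAA was lost for peaks within 250 bp of the TSS, where the difference was 4.75 percentage points against 7.02 (exact McNemar adjusted p = 0.117). The 8-mer ATTTAAAA was in 65 and 32; it was chosen from an earlier result of these data, so its place among the 6 is no independent evidence. GAGAG went the other way, in 82 (9.14%) and 142 (15.8%), with an adjusted p of 0.000158, against 14.6% of promoters without a peak. Neither the part of base composition nor that of distance from the TSS in these differences was tested.

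The other 7 consensuses did not pass the test. They were the E-boxes CAGCTG and CACGTG, the Initiator TCAGTC or TCAGTT, Su(Hw) TGCATAC, Zelda CAGGTA, the CTCF core AGGNGGCGC and a tract of 8 A. The CTCF core was in 8 summit windows and 2 flanks (exact McNemar adjusted p = 0.170), and the Zelda site of early embryonic enhancers in 10 and 21 (adjusted p = 0.124).

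**Figure D5:**
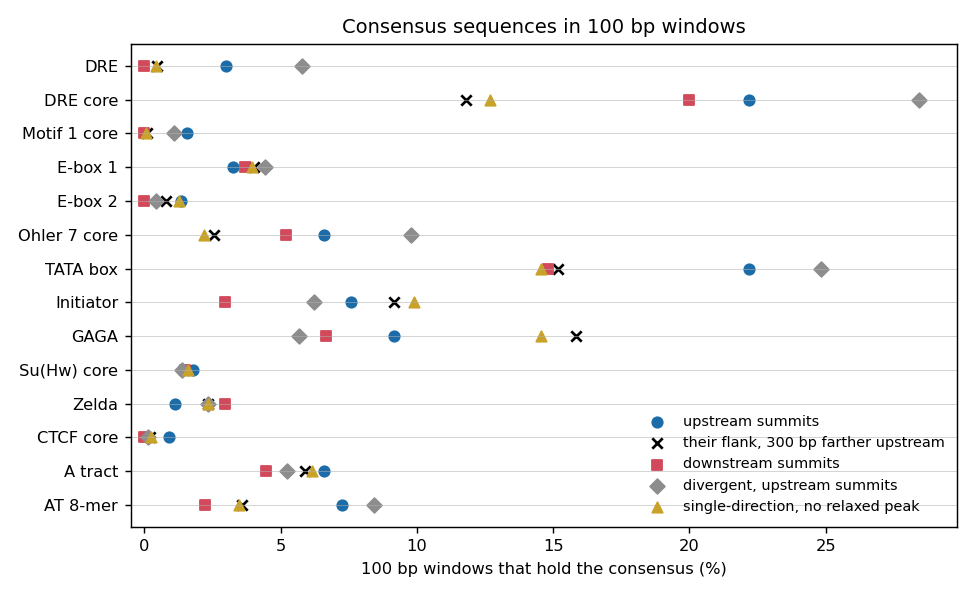
Share of 100 bp windows (%) that hold each consensus. Blue circles are upstream summits, black crosses their flanks 300 bp farther upstream, red squares downstream summits and grey diamonds divergent upstream summits. Yellow triangles are windows at −174 bp from single-direction TSSs without a relaxed peak. E-box 1 is CAGCTG and E-box 2 CACGTG; for the DRE core the blue point is at 22.2%, the flank at 11.8% and the divergent point at 28.4%.

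Against downstream summits, 0 of 14 consensuses differed after adjustment (0%, two-sided Fisher's exact tests), and 3 of 14 had an unadjusted p under 0.05. Those were the DRE (3.01% upstream, 0 of 135 downstream, which allows a share of up to 2.22%), the Initiator (7.58% and 2.96%) and ATTTAAAA (7.25% and 2.22%). The DRE core was at 22.2% upstream and 20.0% downstream. With 135 downstream peaks, small differences were not detectable.

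Against divergent promoters, 3 of 14 differed (21.4%, two-sided Fisher's exact tests, adjusted p = 0.0386 each). The DRE was lower at single-direction upstream summits (3.01% against 5.79%), as was its core (22.2% against 28.4%), and GAGAG was higher (9.14% against 5.66%). The windows are not matched for distance from the TSS, with median summit offsets of −174 and −95 bp, and the part of that distance was not tested. All 3 calls held with a TSS distance of 1000 bp and with windows of 150 bp, and only that for the DRE core held with windows of 60 bp. None held with a TSS distance of 250 bp, with the opposite TSS sought within 500 or 2000 bp or among all gene types, in the upper 50% of peaks, among peaks in all 3 replicates, or with any replicate left out. The directions stayed the same in all of these: the difference was −9.79 to −1.80 percentage points for the core (−6.23 as first given), −3.43 to −1.14 for the DRE (−2.78) and 2.03 to 7.56 for GAGAG (3.49).

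Across all 2080 6-mers merged with their reverse complements, 36 (1.73%) were higher and 40 (1.92%) lower at upstream summits than in flanks (exact McNemar tests, Benjamini-Hochberg). Of those higher, 5 hold the DRE core and 18 consist of A and T alone; of those lower, none consists of A and T alone. The lowest p belonged to CGATAG, in 81 summit windows (9.03%) and 16 flanks, with 2.31% at promoters without a peak and 12.4% at divergent summits (exact McNemar adjusted p = 3.8e-09). Next were TATCGA (100 and 34), AAATAT (294 and 191), AACACT (100 and 45) and ATCGAT (73 and 25). AACACT is not part of the DRE but fits within the Ohler 7 core CANCNCTA. It was at 5.21% in promoters without a peak, against 11.1% at the summits.

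The 6-mers lower at the summit with the lowest p were CTCTCC, in 12 summit windows and 48 flanks, CACACA (39 and 87), GCTCCC (3 and 26), GGGGAA (12 and 43) and CGAAAA (68 and 121). CTCTCC, in 1.34% of upstream summits, was in 4.36% of promoters without a peak and 1.52% of divergent summits.

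The positions of the elements relative to the TSS were also counted. Within 300 bp upstream of the TSS, the DRE was present at 6.69% of promoters with an upstream peak and 2.66% without a peak, at median positions of −60 and −57 bp. Motif 1 was at 3.34% and 0.741%, Ohler 7 at 15.7% and 7.79%, and the DRE core at 44.1% and 37.0%. GAGAG, lower at the summit itself, was at 44.0% and 33.9% over the whole 300 bp, with a median position of −100 bp. TATAAA was at 46.5% and 43.1%, at a median of −185 bp with a peak and −136 bp without.

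Relative to the summit, the nearest DRE, DRE core, Ohler 7 or Motif 1 match within 250 bp was mostly more than 50 bp away. No background share was set beside these values, so centring within that reach was not tested. Of 80 upstream peaks with a DRE within 250 bp, 27 (33.8%) had the nearest within 50 bp. For the DRE core this was 206 of 524 (39.3%) and for Ohler 7 62 of 207. Of 52 peaks with Motif 1 in that reach, 40 (76.9%) had it on the TSS side of the summit, at a median of 75 bp toward the gene. For the DRE, its core and Ohler 7 the share on the TSS side was 58.8%, 54.2% and 55.6%.

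Elements with a fixed place at the TSS were counted as well. A sense-strand TATAAA starting between −45 and −15 bp was present at 29 of 869 TSSs with an upstream peak (3.34%, Wilson 95% interval 2.33 to 4.75%), 2.99% with a downstream peak and 2.08% at divergent ones. At promoters without a peak it was 11.5% (10.8 to 12.3%). The Initiator within 10 bp of the TSS was at 14.2% (12.0 to 16.6%) of TSSs with an upstream peak and 13.5% without a peak, and at 3.61% (2.48 to 5.24%) of divergent ones. The TCT initiator of ribosomal protein genes, CTTTCT or CTTTTT, was at 2.42% with an upstream peak and 1.58% without. These shares are descriptions without a test.

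The peaks with the highest signal were not those richest in the DRE core. Upstream peaks split by signal into 4 parts of near-equal size had the core in 16.0%, 25%, 21.4% and 26.3%, from highest to lowest, which is a description without a test. Mean GC content at the summit was 33.1%, 34.5%, 34.4% and 35.8%. Recovery in all 3 replicates fell from 100% to 89.7%, 46.9% and 4.46%.

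Among the 12 gene lists, cytosolic ribosomal protein genes had the largest share with a peak. Of the 42 with a single-direction TSS, 22 (52.4%) had one, against 9.82% of all genes with such a TSS, and 39 others of the list had only a divergent peak. The 20 upstream summits lay close to the TSS, at a median of −30 bp (quartiles −66.75 and −19.25 bp), and 16 were found in all 3 replicates. RpL23A, of the large subunit, ranked 342, 215 and 225 with its summit at −81 bp. RpL24 ranked 739, 320 and 423 at −22 bp.

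Other lists of general cell functions held few genes with a peak, and several were near the 9.82% of all genes. The counts were 4 of 25 (16%) for translation initiation factors, 3 of 10 for TFIID and general factors, 4 of 36 (11.1%) for vesicle traffic, 1 of 7 (14.3%) for Mediator, 1 of 15 (6.67%) for mitochondrial ribosomal proteins and 1 of 26 (3.85%) for the proteasome. Nothing is read from shares this near to the background or from lists this small. eIF6, a factor of large-subunit maturation, ranked 39, 109 and 116. Taf4, a TFIID subunit, ranked 1396, 1326 and 1311, TfIIA-S 1173, 925 and 1812 and MED4 962, 1177 and 1210. Rab5, the GTPase of early endosomes, ranked 507, 918 and 737 at −309 bp. The low members varied more: Rpn11, a proteasome lid subunit, ranked 3377, 13857 and 3280, mRpL19 3042, 3960 and 6379 and eIF2A 4572, 2452 and 1259. Rab1, the GTPase of transport from the endoplasmic reticulum, was absent from replicate 1 and ranked 3308 and 1608 in the others.

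Developmental and tissue-specific lists were counted against the same 9.82%. None of 8 Hox genes, 67 cuticle genes or 101 odorant and gustatory receptor genes with a single-direction TSS had one. With so few Hox genes, their count of 0 was not read as a result. Of 18 segmentation genes (5.56%) only bcd, the anterior morphogen gene, had one, ranked 684, 1902 and 1628 at −222 bp. Of 9 synapse and neuron genes (11.1%, near the background) only elav, a neuronal RNA-binding protein gene, had one, ranked 212, 152 and 168 at −284 bp.

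At the edge of the rule, the outermost peaks inside 500 bp were at ush (−493 bp, rank 2326) and Atpalpha (−498 bp, rank 3461). The nearest outside were at CG10543 (−502 bp, rank 1857) and CG46339 (+502 bp, rank 2422).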

How the data were processed

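The 3 samples form 1 group. The authors deposited peak lists in narrowPeak layout on dm6 and dm3, and the dm3 lists were not used here. The deposited file listing gives a relaxed list for each replicate and for the pool, input to the irreproducible discovery rate procedure, which gave the optimal list. How reads were aligned and peaks called, and at which thresholds, is not given in the sources used here. The deposited signal value is a score per peak made by the authors, used for ranking only, and the deposited summit offset gave each summit position. Depth is unknown, and intervals cover counting only.

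Protein-coding TSSs (19276, of which 13240 are single-direction) came from Ensembl BDGP6 models and sequence from RefSeq's release 6 assembly, the same build as dm6. Replicate peaks were matched to optimal peaks at a summit distance of at most 100 bp. Consensuses and 6-mers were searched in 100 bp windows. Tests were exact McNemar, Fisher and sign tests over peaks, with Benjamini-Hochberg adjustment and a threshold of 0.05, and exact sign-flip tests over replicates. The 8 highest peaks of each side, up to 2 upstream peaks per gene list, and the 5 lowest-p 6-mers in each direction were named, together with genes with more than 2 peaks. Of the upstream peaks so chosen, 1 is not reported here. Alternatives changed the distances, the divergence rule, the peak threshold, the window and the replicates. The members and lists were chosen with earlier results of these data known. The tests were also run on simulated windows of random bases, with the same base composition at centre and flank. Real windows differed in GC content and in distance from the TSS. That run therefore cannot show what part of the calls either has. Figures were drawn with matplotlib 3.10.9, and values computed with scipy 1.17.1, pandas 2.3.3 and numpy 2.4.6 under Python 3.11.15.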

Additional observations from a re-analysis of the deposited data

How the results depend on the processing

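No result changed sign under any alternative run. With the TSS within 250 bp, the median upstream offset was −124.5 bp, 12 6-mers were called in place of 76, and 0 consensuses separated single-direction from divergent promoters in place of 3. Within 1000 bp these were −210 bp, 125 and 5, and the upstream share was 81.0%. With the opposite TSS sought within 500 or 2000 bp the offset was −164 and −181 bp and the divergent comparison had 0 calls, as it did with any gene type. The upper 50% of peaks left 546 peaks on 516 genes, 89.6% upstream, at −181 bp, with 46 6-mers and 0 divergent calls. Peaks in all 3 replicates numbered 609 on 572 genes, at −181 bp, with 46 and 0. Windows of 60 bp gave 12 6-mers and 1 divergent call (the DRE core), and windows of 150 bp gave 118 6-mers, 4 divergent calls (DRE, its core, Ohler 7 core and GAGAG) and 1 consensus between upstream and downstream, the ATTTAAAA chosen from these data. Requiring each peak in both other replicates, each replicate left out in turn gave 672 to 732 peaks on 631 to 682 genes, 87.3 to 89.3% upstream, offsets of −183 to −178 bp, rank differences of −363 to −269.75, GC differences of −5.16 to −4.71 points, 7 to 7 flank consensuses, 41 to 61 6-mers, and 0 to 0 calls in the other comparisons. Counts fall with fewer peaks by construction; other causes were not tested. Against the flank, ATTTAAAA also lost its call within 250 bp (2.13 points in place of 3.68). Unknown depth, 3 replicates and 135 downstream peaks limit the precision.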
